A study of Mus musculus with 2 samples.

Results

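The 9 genes described here encode titin (Ttn), nebulin (Neb), the calsarcins or myozenins (Myoz1, Myoz2, Myoz3), telethonin (Tcap), the PDZ-LIM protein cypher (Ldb3), desmin (Des) and myotilin (Myot). They were taken by name from the GENCODE M21 annotation on mm10, and are 9 of 21938 protein-coding genes on the autosomes and sex chromosomes. All 9 were found, and none was left out for a low value. Every peak within 1 kb of an annotated transcription start site (TSS), inside the gene or within 50 kb of either end was taken from each library.

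In striated muscle the Z-disc is the plate at each end of the sarcomere where actin filaments of opposite polarity are crosslinked by alpha-actinin. Titin spans from the Z-disc to the M-band and sets passive tension, and telethonin caps the Z-disc ends of neighbouring titin molecules. Nebulin runs along the actin filament of skeletal muscle, the myozenins tie alpha-actinin to calcineurin, cypher and myotilin bind alpha-actinin, and desmin filaments join neighbouring Z-discs.

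Open chromatin was measured by DNase-seq, in which the enzyme DNase I cuts DNA that is not protected by nucleosomes, in the gastrocnemius, a calf muscle. There was 1 group of 2 libraries, labelled biological replicates 1 and 2, from female B6CASTF1/J mice aged 10 days. This strain is an F1 hybrid of a C57BL/6 and a CAST parent, and all peaks are given on the mm10 reference. No agent, genotype contrast or second time point was part of the design, so no comparison between conditions was possible and no test was made. The label of each library names 3 females, and both carry a single donor identifier, so the spread between the libraries may be partly technical. Each value below is that of 1 library and has no error of its own.

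The libraries stand apart in how much was called. The stricter peak list of each library held 114758 peaks in replicate 1 and 26804 in replicate 2, and the longer list held 189128 and 46786. Every peak of the stricter lists had a base with a false discovery rate (FDR) of 0.001 or less in the authors' own intervals, and every peak of the longer lists one of 0.05 or less. Of the stricter peaks, 16.7% in replicate 1 and 70.3% in replicate 2 were shared, that is, overlapped at least 50% of either peak of a pair. Peak heights are taken here as a signal scaled by the authors to read depth, which is read from the values and the text files deposited with them and is not stated for the peak lists, so heights are best compared within a library. Numbers of reads were not analysed here. The median height of the stricter lists was 1.18 in replicate 1 and 1.48 in replicate 2. Of 15 marker genes of skeletal muscle fibres, 7 had a promoter peak in replicate 1 and 3 in replicate 2, while Atp2a1, Myh1, Myh2, Myh4, Myl1, Tnnc2 and Tnnt3 had none in either. Of the lists of other cells, promoter peaks in replicates 1 and 2 were found for 4 and 1 of 10 cardiac, 5 and 3 of 8 smooth muscle and mural, 3 and 2 of 8 endothelial, 3 and 4 of 8 fibroblast and tendon, 3 and 2 of 6 Schwann, 6 and 3 of 6 neuronal and 0 and 0 of 6 macrophage markers. Beside these counts, 66.7% of all protein-coding genes had a promoter peak in replicate 1 and 51.4% in replicate 2. The counts therefore give no measure of which cells were present. The part of the mix of cells in the values below was not tested.

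Promoter peaks were few at the Z-disc and giant-protein genes. In the stricter lists 3 of the 9 genes had a peak within 1 kb of any annotated start in replicate 1, beside 66.7% of all protein-coding genes. In replicate 2 it was 0 of 9, beside 51.4%. A promoter peak shared by both libraries was found at 0 of 9 genes, beside 45.0% of all genes. The 3 genes were Ttn, with a tallest promoter peak of 0.841, Neb, with 5.06, and Tcap, with 1.01. Among all genes with a promoter peak the median of the tallest was 6.30 in replicate 1 and 2.03 in replicate 2, so the 3 values lay below the first of these. The other 6 genes, Myoz1, Myoz2, Myoz3, Ldb3, Des and Myot, had none in either library, beside 32.9% of all genes.

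The peaks of Ttn and Neb counted above lay deep inside these genes, beside starts of shorter annotated transcripts. With only the start at the 5′ end of each gene, an alternative added after seeing the data, Tcap alone kept a promoter peak in replicate 1, 1 of 9 beside 62.0%, and none did in replicate 2, 0 of 9 beside 47.4%. In the longer lists the counts over all starts were 4 of 9 in replicate 1, beside 71.1%, and 2 of 9 in replicate 2, beside 59.7%. Des joined in replicate 1, and in replicate 2 Ttn and Neb had peaks of 1.11 and 0.622.

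The bases around the starts were also read without regard to peaks. Intervals of the authors' cut-rate file with an FDR of 0.05 or less lay within 1 kb of a start of Ttn, Neb, Tcap and Des in replicate 1, 4 of 9 beside 71.8% of all genes. In replicate 2 they lay at Ttn, Neb and Des, 3 of 9 beside 60.9%. At 0.001 or less the counts were 3 of 9, beside 67.3%, and 0 of 9, beside 52.9%. Within 1 kb of the 5′ end alone, a base at 0.05 or less was listed for Tcap and Des in replicate 1, 2 of 9 beside 67.3%, and for Ttn and Des in replicate 2, 2 of 9 beside 56.4%. At 0.001 or less it was Tcap in replicate 1, 1 of 9 beside 62.6%, and 0 of 9 in replicate 2, beside 48.8%. Neb, Myoz1, Myoz2, Myoz3, Ldb3 and Myot had no listed base at the 5′ end in either library, and Myoz1 and Myoz2 had none in the whole gene. A gene with no listed base had no enrichment detectable at this depth, and the file lists nothing above 0.05.

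The sequence at the 5′ ends of these genes was poor in CpG. The ratio of observed to expected CpG in the 1 kb around the 5′ end had a median of 0.232 over the 9 genes and 0.553 over all genes. With all genes split in equal parts at ratios of 0.302 and 0.708, 6 of the 9 fell in the lowest part: Myot at 0.123, Ldb3 at 0.177, Myoz3 at 0.196, Myoz2 at 0.208, Myoz1 at 0.232 and Tcap at 0.261. Neb at 0.329, Ttn at 0.379 and Des at 0.702 fell in the middle part, and 0 in the highest. In the lowest part promoter peaks were found at 21.6% of genes in replicate 1, 10.3% in replicate 2 and 8.57% in both as shared peaks, in the middle part at 80.4%, 56.9% and 48.5%, and in the highest at 98.0%, 87.2% and 77.9%. Of the 6 genes in the lowest part 1 had a promoter peak in replicate 1 and 0 in replicate 2. Of the 3 in the middle part 2 had 1 in replicate 1, both at inner starts, and 0 in replicate 2. The part of CpG content in the counts of promoter peaks was not tested.

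Inside the genes, 5 of the 9 had at least 1 gene-body peak in replicate 1, beside 43.3% of all genes, and these peaks numbered 14 in Neb, 4 in Ttn, 4 in Ldb3, 1 in Myoz3 and 1 in Des. A gene-body peak lies inside the gene and farther than 1 kb from its starts. In replicate 2 only Ttn had any, 1 of 9 beside 12.4%, and it had 16. A shared gene-body peak was found in 0 of 9, beside 10.4%.

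**Figure D1:**
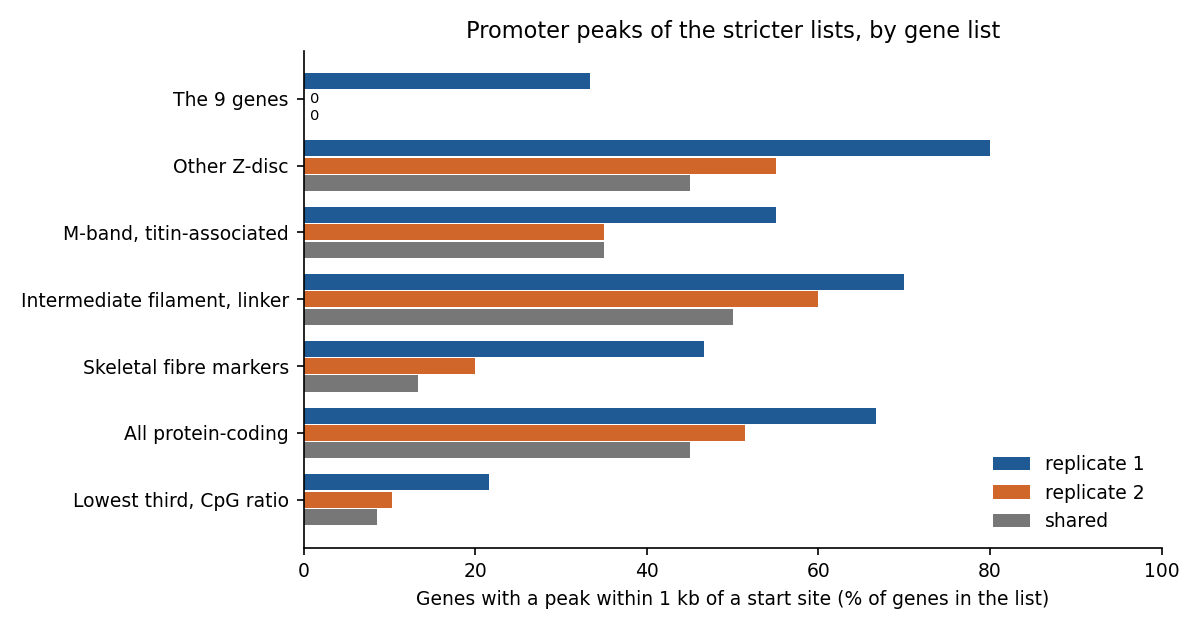
Share of genes with a peak within 1 kb of any annotated start (x axis, percent of the genes in each list) in the stricter list of replicate 1 (blue), replicate 2 (orange) and as a shared peak (grey), with 1 value per library and no error bars. The 9 genes reach 33.3% in replicate 1 and 0 in the other bars, below the 66.7%, 51.4% and 45.0% of all protein-coding genes.

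Titin is encoded by a gene of 279 kb (Ttn, ENSMUSG00000051747.14, chr2:76703980-76982547, minus strand), with 25 annotated transcripts and 16 start sites. In replicate 1 it held a promoter-window peak of 0.841 at chr2:76938621-76938820, 197 bp from the start of the retained-intron transcript Ttn-206, and 4 gene-body peaks. Their heights were 4.0 at chr2:76969021-76969200, 2.02, 1.93 and 0.615. None overlapped a listed base of replicate 2. At the 5′ end itself replicate 1 listed no base, and replicate 2 listed 84 bases with a lowest FDR of 2.46e-02, under the peak of 1.11 at chr2:76982488-76982572 in its longer list.

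In replicate 2 the stricter list held 16 gene-body peaks of Ttn, and these were all the gene-body peaks that the 9 genes had in that library. They lay between 224 and 262 kb from the 5′ end, over 38.3 kb, and 9 of the 16 were inside the longest exon (17.1 kb, chr2:76736064-76753169), which encodes repeats of the A-band part of titin. All 16 were at least 50% exonic and 15 fully exonic, beside 19.2% of gene-body peaks of all genes in that library that were at least 50% exonic and 21.1% of those of 0.386 or lower. Exons make up 41.9% of Ttn and 79.7% of the stretch from the first to the last of these peaks. Their heights were low, from 0.172 over a median of 0.311 to 0.386, and only 3.6% of that library's stricter list was as low as 0.386 or lower. Their lowest FDR ranged from 3.05e-08 to 6.77e-04, smaller than at the taller peak at the 5′ end. A footprint, a short protected stretch that the authors called within open chromatin, was found in 5 of the 16, beside 79.3% of gene-body peaks of all genes in that library and 27.8% of those of 0.386 or lower.

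In replicate 1 not a single base under these 16 peaks was listed at an FDR of 0.05 or less. Of 2492 genes of 100 kb or more, 0.321% had as many as 16 gene-body peaks in replicate 2, and 37.0% had at least 1, against 95.1% in replicate 1. Of all protein-coding genes, 0.744% had a gene-body peak of 0.386 or lower in replicate 2, and 0.0137%, which is 3 genes, had as many as 16. The other two, looked up after the values were seen, were Glis1 with 24 and AC124108.1 with 17. Among the 50 related genes of the comparison lists given at the end, gene-body peaks were more numerous in replicate 2 than in replicate 1 at 1 gene, Flnc, which encodes the Z-disc protein filamin C. It had 17, of 0.3 to 1.97, with 7 at 0.386 or lower and 8 at least 50% exonic in a gene that is 32.8% exonic, against 5 in replicate 1, and 0 were shared. Of the 67 genes of the marker lists this was so at 2, Pvalb of fast fibres with 6 against 1, and Col1a1 of fibroblasts with 3 against 1. The share of all protein-coding genes with more in replicate 2 was not counted, so these counts show no trait of muscle genes. The tallest of the peaks of at most 300 bp inside the longest exon (0.354, chr2:76741021-76741237) is shown in the gene's sense as an example of coding sequence called in 1 library only. It holds no match to the motifs marked in capitals in later sequences, and no footprint.
Ttn exon: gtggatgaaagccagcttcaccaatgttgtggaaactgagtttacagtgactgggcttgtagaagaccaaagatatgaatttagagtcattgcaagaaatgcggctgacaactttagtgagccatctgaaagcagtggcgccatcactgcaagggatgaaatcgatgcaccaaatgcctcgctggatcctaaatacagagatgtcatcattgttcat

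Nebulin is encoded by a gene of 242 kb (Neb, ENSMUSG00000026950.17, chr2:52136647-52378474, minus strand), with 13 transcripts and 12 start sites. In replicate 1 it held 4 promoter-window peaks and 14 gene-body peaks, and in replicate 2 it held 0 of either. The promoter-window peaks were 5.06 at chr2:52176661-52176900, 167 bp from the start of the protein-coding transcript Neb-206 and 202 kb from the 5′ end, and 2.18, 1.09 and 0.961. The gene-body peaks ran from 0.406 to 4.86, the tallest at chr2:52212541-52212980. In this gene, which is 11% exonic, 6 of the 14 were at least 50% exonic, beside 12.7% of gene-body peaks of all genes in that library. The nearest to the 5′ end was a peak of 1.09 that lay 7.21 kb into the gene. In replicate 2 the whole gene had 55 listed bases with a lowest FDR of 2.48e-02, under a longer-list peak of 0.622.

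Neb thus carried 5.79 gene-body peaks per 100 kb in replicate 1 and 0 in replicate 2, and Ttn the reverse order, 1.44 and 5.74. The medians over genes of 100 kb or more were 3.62 and 0. A count of 14 or more in replicate 1 was reached by 23.6% of these genes. The sequence under the tallest peak of Neb, on the gene's strand, is shown because it is the tallest promoter-window peak of the 9 genes. The capitals mark CAGCTG, a form of the E-box CANNTG that MyoD-family factors bind, which lay outside the 5 footprints overlapping the peak. The E-boxes CATATG and CACCTG, not marked, overlapped footprints of replicate 1.
Neb inner start: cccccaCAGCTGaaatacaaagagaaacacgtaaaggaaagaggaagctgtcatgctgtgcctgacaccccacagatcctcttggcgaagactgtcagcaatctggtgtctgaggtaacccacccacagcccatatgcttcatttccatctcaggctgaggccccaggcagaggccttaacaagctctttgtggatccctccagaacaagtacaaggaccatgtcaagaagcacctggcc

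**Figure D2:**
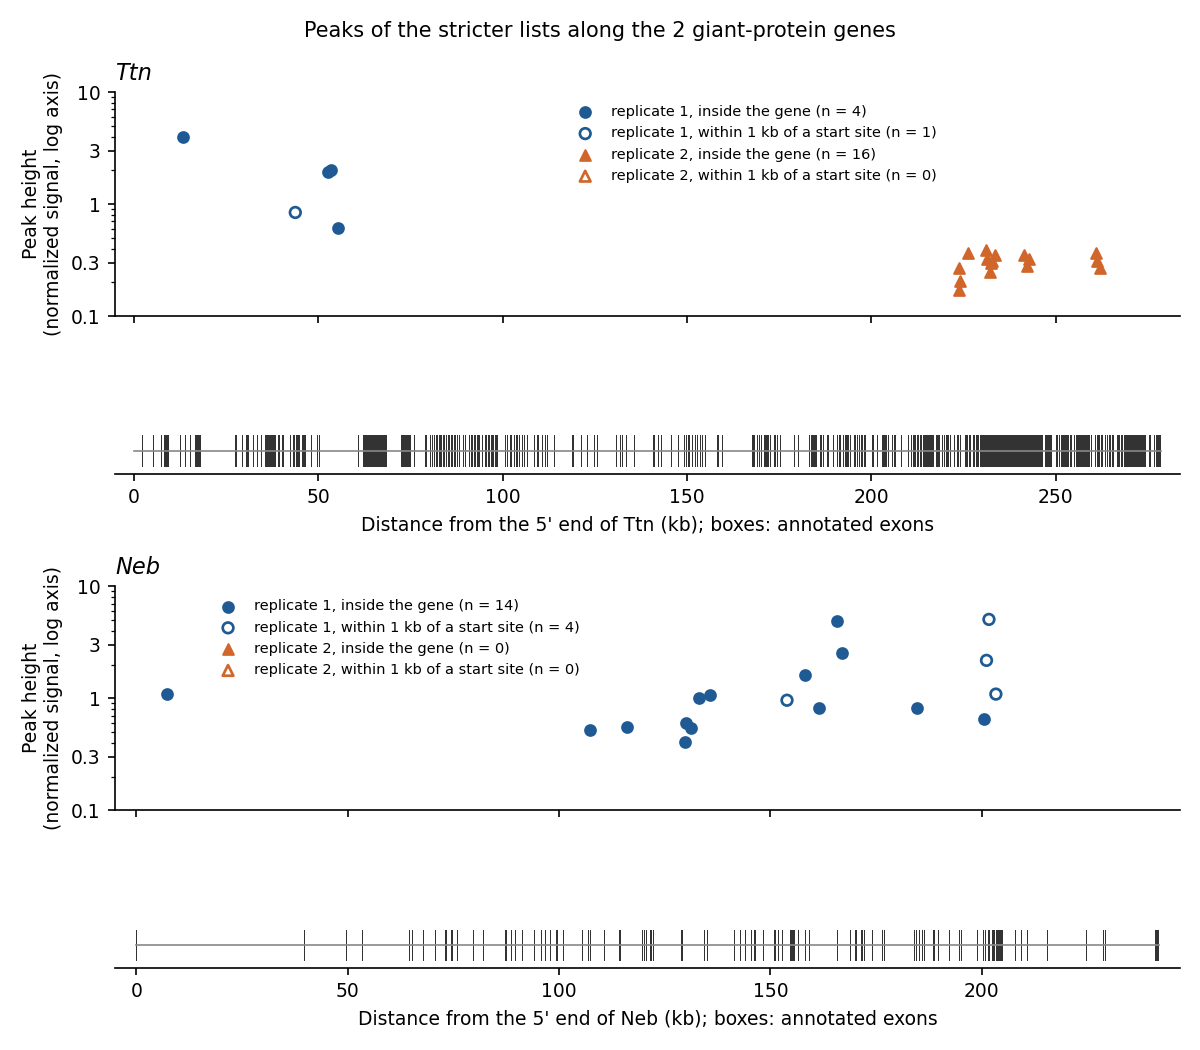
Height of each peak of the stricter lists (y axis, normalized signal, log axis) against its distance from the 5′ end in kb for Ttn (top) and Neb (bottom), with circles for replicate 1, triangles for replicate 2 and open symbols for peaks within 1 kb of an annotated start. Boxes are annotated exons. In Ttn the 16 peaks of replicate 2 lie in the exon-dense end between 224 and 262 kb, apart from the 5 of replicate 1, and Neb has peaks of replicate 1 only.

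Telethonin has the shortest gene of the 9 (Tcap, ENSMUSG00000007877.2, chr11:98383811-98384953, plus strand, 1.14 kb). It was the only one with a stricter peak at its own 5′ end, 1.01 at chr11:98383459-98383614 in replicate 1, with its middle 274 bp upstream of the start and a lowest FDR of 5.91e-05. Replicate 2 listed no base within 1 kb of the start. Just past the gene's other end, 127 bp away, both libraries had a peak, 2.29 at chr11:98385081-98385280 in replicate 1 and 1.58 at chr11:98385117-98385213 in replicate 2. This was the shared peak nearest to any of the 9 genes. With a promoter window of 2 kb in place of 1 kb it counts as a shared promoter peak, the only one of the 9 genes. Both sequences are shown on the gene's strand, the first for the 5′ end and the second because both libraries called it.
Tcap upstream: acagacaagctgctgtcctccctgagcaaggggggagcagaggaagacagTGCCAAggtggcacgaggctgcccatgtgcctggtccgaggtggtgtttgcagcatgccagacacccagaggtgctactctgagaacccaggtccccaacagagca
Tcap downstream: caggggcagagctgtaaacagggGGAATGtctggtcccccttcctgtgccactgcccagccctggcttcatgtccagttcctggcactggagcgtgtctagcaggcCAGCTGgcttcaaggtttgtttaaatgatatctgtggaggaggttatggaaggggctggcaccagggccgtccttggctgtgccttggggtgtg

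The capitals in the upstream sequence are TTGGCA on the other strand, the element of nuclear factor I, which touched a footprint of replicate 1. In the downstream sequence they are first CATTCC on the other strand, the MCAT element bound by TEAD factors, and then CAGCTG. The CAGCTG, at chr11:98385187-98385192, lay in a footprint in both libraries, and the MCAT element touched one in replicate 1. CAGCTG was present in the central 150 bp of 16.3% of all peaks of replicate 1 and 10.9% of replicate 2, and CATTCC in 7.73% and 6.37%. These matches describe letters only.

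Farther out Tcap had 22 flank peaks in replicate 1 and 6 in replicate 2, beside medians of 6 and 1 over all genes. The 22 include a pair that overlap each other, and the share of genes with as many was not counted. In each library 5 of the flank peaks of Tcap were shared. The tallest shared was 7.89 at chr11:98342661-98342900 and 6.95 in replicate 2, 40.9 kb upstream and outside any protein-coding gene. Another of 5.44 and 1.67 lay 38.3 kb upstream. Within the neighbouring gene Stard3 a peak of 6.91 lay 3.43 kb upstream of Tcap, in replicate 1 only.

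Desmin (Des, ENSMUSG00000026208.9, chr1:75360329-75368579, plus strand, 8.25 kb) had signal at its start below the stricter limit in both libraries, at different bases. In replicate 1 the longer list held a peak of 0.525 at chr1:75360229-75360298, just upstream of the start, and another of 0.549 at chr1:75360817-75360900. In replicate 2 there was no peak in either list, and 23 bases were listed, 18 of them between 248 and 231 bp upstream, with a lowest FDR of 1.03e-02. None of the 146 bases of replicate 1 and 23 of replicate 2 coincided. The 250 bases upstream of a RefSeq start of Des (chr1:75360042-75360291, GRCm38.p6) are shown since that region holds most of the weak peak of replicate 1.
Des upstream: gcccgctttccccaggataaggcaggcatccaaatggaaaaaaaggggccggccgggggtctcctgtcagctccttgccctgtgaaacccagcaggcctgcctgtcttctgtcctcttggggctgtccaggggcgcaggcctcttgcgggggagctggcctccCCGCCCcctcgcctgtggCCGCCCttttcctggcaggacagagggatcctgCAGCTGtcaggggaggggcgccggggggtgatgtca

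In it the capitals mark 2 boxes GGGCGG, bound by SP1, on the other strand, and CAGCTG at chr1:75360256-75360261, inside the weak peak of replicate 1. No footprint of either library overlapped the 250 bases. Of 32851 RefSeq promoters, 13% held CAGCTG in the same 250 bases and 32.7% held GGGCGG.

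Taller peaks lay elsewhere around Des. In replicate 1 the gene body had a peak of 2.19 at chr1:75365630-75365786. The tallest flank peak away from protein-coding starts was 11.9, also in replicate 1 only, at chr1:75370441-75370640, 1.86 kb past the end of the gene, within 1 kb of a start of the antisense transcript Gm15179 and with 6 footprints. It was also the tallest such peak of all 9 genes, where heights in replicate 1 ran from 0.424 to 11.9. Replicate 2 listed no base there. Its sequence is shown for that reason, and it holds none of the motifs that are marked in capitals.
Des downstream: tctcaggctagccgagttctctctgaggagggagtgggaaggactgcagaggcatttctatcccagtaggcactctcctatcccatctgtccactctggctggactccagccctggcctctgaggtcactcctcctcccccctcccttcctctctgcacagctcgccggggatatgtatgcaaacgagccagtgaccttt

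Cypher (Ldb3, ENSMUSG00000021798.14, chr14:34526603-34588682, minus strand, 62.1 kb) had no listed base at any of its starts and 4 gene-body peaks in replicate 1. Their heights were 4.64 at chr14:34549461-34549660, 2.97, 1.31 and 1.31, and all 4 lay in introns. The stricter list of replicate 2 had 0 here, but its longer list had 3, of 1.48, 1.47 and 1.05. One of these, chr14:34548674-34548921, overlapped a peak of 1.31 in replicate 1, and it was the only shared gene-body peak of the 9 genes in the longer lists. The peak of 1.47, chr14:34549381-34549460, ended at the base before the tallest peak of replicate 1, whose own bases were listed in replicate 2 with a lowest FDR of 2.36e-03. Of the 24 gene-body peaks of replicate 1, the 3 with listed bases in replicate 2 were all in Ldb3. The share of such peaks among gene-body peaks of all genes was not counted. Replicate 2 listed 116 bases under the peak of 4.64, and 227 and 7 under the peaks of 1.31. The lowest FDR of those 7 bases was 3.65e-02. Under the peak of 2.97 replicate 2 listed no base.

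Upstream of Ldb3, 28.2 kb from the gene and outside any protein-coding gene, was a shared peak of 3.61 at chr14:34616921-34617100 and 1.51 in replicate 2. The 3 stretches shown are, on the gene's strand, the tallest intron peak, the shared intron peak and this upstream peak.
Ldb3 intron: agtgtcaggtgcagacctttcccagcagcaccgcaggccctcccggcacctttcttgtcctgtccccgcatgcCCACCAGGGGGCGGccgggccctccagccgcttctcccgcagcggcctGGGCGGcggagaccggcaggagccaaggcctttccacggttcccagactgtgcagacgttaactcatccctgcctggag
Ldb3 shared intron: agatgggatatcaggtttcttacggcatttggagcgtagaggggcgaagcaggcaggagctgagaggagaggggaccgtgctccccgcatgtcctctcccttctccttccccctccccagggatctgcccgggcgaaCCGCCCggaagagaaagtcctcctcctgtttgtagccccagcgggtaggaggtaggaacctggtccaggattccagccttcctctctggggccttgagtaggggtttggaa
Ldb3 upstream: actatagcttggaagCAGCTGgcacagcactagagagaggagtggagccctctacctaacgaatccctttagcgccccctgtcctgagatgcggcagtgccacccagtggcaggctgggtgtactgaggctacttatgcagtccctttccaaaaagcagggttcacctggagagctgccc

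The first has a match to the CTCF core overlapping a GGGCGG box, both inside a footprint of replicate 1, and another GGGCGG outside footprints. The second has GGGCGG on the other strand, touching a footprint in replicate 2. The third has CAGCTG, in a footprint of replicate 1. The CTCF core was found in the centres of 9.52% of all peaks in replicate 1 and 10.6% in replicate 2, and GGGCGG in 15.9% and 29.3%.

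Of the 3 myozenin genes, 2 had no peak in the promoter or the gene in any list of either library. Myoz1 (ENSMUSG00000068697.7, chr14:20649107-20656540, minus strand, 7.43 kb), the fast-fibre form, had a peak of 8.66 in replicate 1 at chr14:20661041-20661280, 4.50 kb upstream and inside the neighbouring gene Synpo2l, which encodes another Z-disc protein. Replicate 2 had a peak on either side of it, 2.49 ending at the base before and 2.71 starting after a gap of 20 bp. By the rule of 50% overlap this was not a shared peak, yet all 240 of its bases were listed in replicate 2, with a lowest FDR of 1.58e-05. The stretch between the flanking peaks is shown on the strand of Myoz1, because peaks of the 2 libraries adjoin there. Its capitals mark overlapping GGGCGG boxes and a match to the CTCF core, all in footprints of replicate 1.
Myoz1 upstream: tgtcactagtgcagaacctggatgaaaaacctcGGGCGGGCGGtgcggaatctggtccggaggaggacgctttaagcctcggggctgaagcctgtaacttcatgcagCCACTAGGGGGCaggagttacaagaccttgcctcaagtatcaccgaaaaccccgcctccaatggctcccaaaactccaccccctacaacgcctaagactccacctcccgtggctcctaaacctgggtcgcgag

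Myoz2 (ENSMUSG00000028116.13, chr3:123006206-123035015, minus strand, 28.8 kb), the form of slow fibres and heart, had 2 flank peaks in each library. This was the fewest of the 9 genes in replicate 1, while in replicate 2 Ttn, Neb and Myot also had 2. Apart from a peak of 0.609 in replicate 1 the flank peaks of Myoz2 lay at the start of Usp53, 16.3 in replicate 1 and 2.99 in replicate 2 at the tallest. Myoz3 (ENSMUSG00000049173.8, chr18:60573750-60591788, minus strand, 18 kb) had a gene-body peak of 0.776 in replicate 1 alone. Its nearest shared peak was 5.32 in replicate 1 and 2.69 in replicate 2, inside the neighbour Synpo and 4.25 kb upstream. Replicate 2 had a run of 9 peaks of 0.375 to 1.31 over 4.35 kb farther upstream, where replicate 1 had 2 peaks and 1 pair was shared. Myotilin (Myot, ENSMUSG00000024471.12, chr18:44334074-44355724, plus strand, 21.7 kb) had no stricter peak in the promoter or the gene. In the longer list of replicate 2 a fully exonic peak of 0.547 lay 3.06 kb into it. Its shared flank peaks were 16.5 and 2.46 at the start of Dcp2, and 2.46 and 1.76 inside Dcp2, 44.9 kb downstream.

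**Figure D3:**
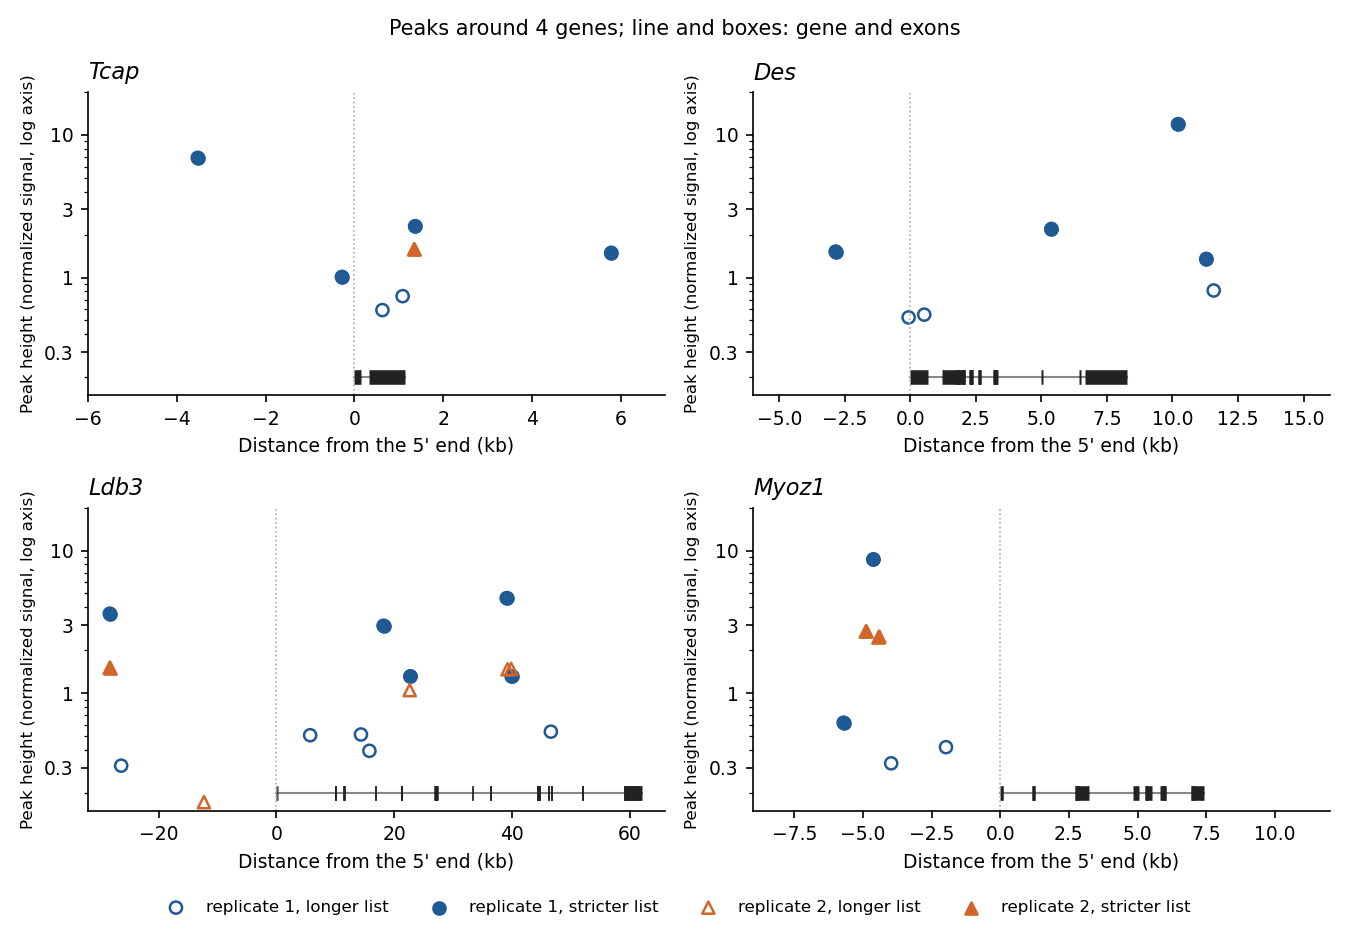
Height of peaks (y axis, normalized signal, log axis) against distance from the 5′ end in kb for Tcap, Des, Ldb3 and Myoz1, with circles for replicate 1, triangles for replicate 2, filled symbols for the stricter and open symbols for the longer list, and the gene and its exons as a line with boxes. Within 1 kb of the 5′ ends there are only low peaks, up to 1.01 at Tcap and 0.549 at Des, and the taller peaks lie upstream, in introns or past the gene.

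The flanks of the 9 genes held 78 peaks in replicate 1 and 40 in replicate 2, of which 25 of replicate 1 were shared. The share of flank peaks of all genes that were shared was not counted, so 25 of 78 shows no trait of these genes. Of the 25, 18 lay within 1 kb of a start of another protein-coding gene, beside 68.8% of the shared flank peaks of all genes. All 9 genes had at least 1 shared flank peak, beside 62.7% of all genes. Per gene the median was 5 flank peaks in replicate 1, 3 in replicate 2 and 2 shared, beside 6, 1 and 1 over all genes. Peaks at other genes' starts had a median height of 4.39 in replicate 1, up to 32.6, and flank peaks elsewhere 1.44. In replicate 2 the medians were 2.43 and 1.25.

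Neighbours were taken because a called peak lay at their start. Their counts therefore cannot be set against the 45.0% of all genes with a shared promoter peak. Of 19 such neighbours, 15 had peaks in both libraries, and the same 15 had a shared promoter peak. At Des it was Dnpep, an aminopeptidase gene, with 32.6 and 2.81 in replicates 1 and 2. At Neb it was Arl5a, of the ARF-like GTPases, with 18.3 and 2.66. At Ttn they were Fkbp7 with 7.10 and 1.90 and Plekha3 with 4.74 and 1.49. Myoz1 lay among Sec24c, for a COPII coat protein, with 17.8 and 3.24, Usp54 with 13.4 and 2.74, Fut11 with 8.17 and 1.46, and Chchd1 with 6.22 and 3.48. Near Myoz3 were Dctn4, a dynactin subunit, with 13.6 and 5.68, and the splicing factor Rbm22 with 13.2 and 3.01. Near Tcap were Stard3 with 5.16 and 2.76 and Pgap3 with 4.44 and 3.03, and near Ldb3 the BMP receptor gene Bmpr1a with 9.49 and 2.40.

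The other 4 neighbours had peaks in 1 library. Speg, which encodes a kinase of striated muscle and lies beside Des, had up to 2.16 in replicate 1, Ppp1r1b up to 1.79 and Synpo 1.58, while Erbb2 had 1.23 in replicate 2. The 7 shared flank peaks away from other genes' starts were those of Tcap (3), Myoz3 (2), Ldb3 (1) and Myot (1). Ttn, Neb, Myoz1, Myoz2 and Des had 0.

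**Figure D4:**
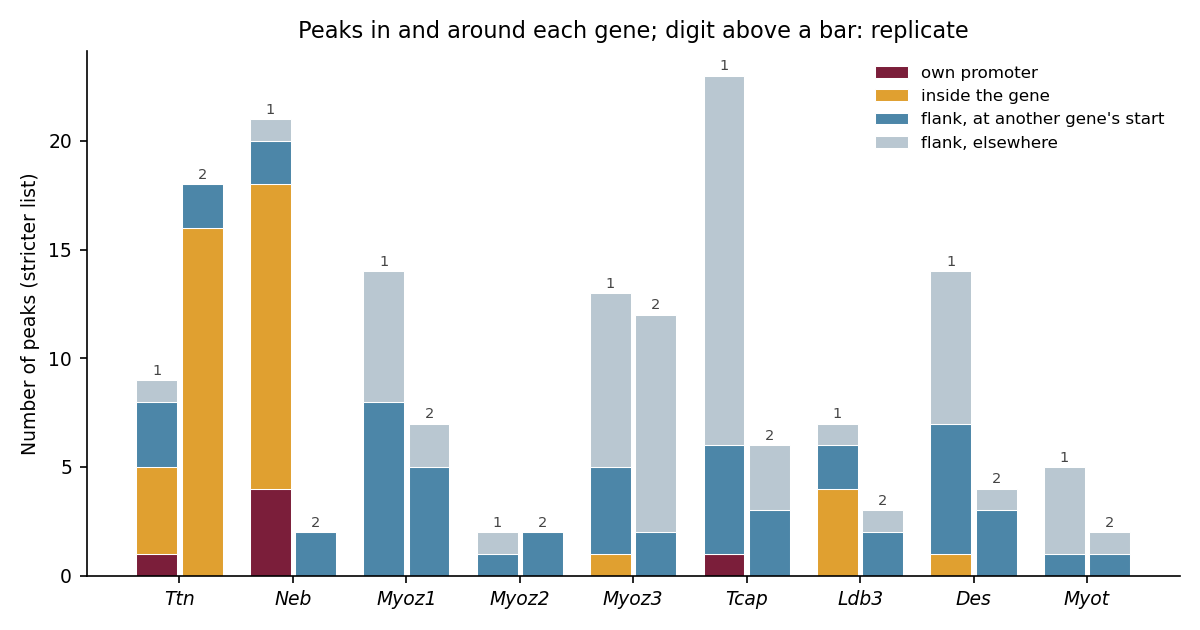
Number of peaks of the stricter lists (y axis) for each of the 9 genes, with the left bar for replicate 1 and the right bar for replicate 2, split into own promoter, gene body, flank at another gene's start and flank elsewhere. Own-promoter peaks occur in 3 bars of replicate 1 and in 0 of replicate 2, and the 16 gene-body peaks of replicate 2 are all in Ttn.

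Related genes are given for comparison, as counts and levels with no test between lists. Beside them, 66.7% of all protein-coding genes had a promoter peak in replicate 1, 51.4% in replicate 2 and 45.0% a shared one. Of 20 other Z-disc genes, 16 had a promoter peak in replicate 1, 11 in replicate 2 and 9 a shared peak. Actn3, the fast-fibre alpha-actinin, had 14.7 and 5.02, Capzb, which caps actin filaments, 16.3 and 2.47, Pdlim7 8.25 and 3.09, and Pdlim5 6.08 and 2.65. Csrp3, Nrap, Synpo2l and Xirp2 had none in either library. Of 20 genes of the M-band and of titin's partners, 11, 7 and 7 had such peaks, with the M-band proteins Myom1 at 15.7 and 2.95 and Myom3 at 4.74 and 4.34, Cmya5 at 7.24 and 3.44 and Obsl1 at 5.01 and 1.68, and with none for 9 genes, among them Ankrd1, Capn3, Klhl41 and Lmod2. Of 10 intermediate filament and linker genes the counts were 7, 6 and 5, with Lmnb1 at 12.4 and 2.23, Synm, which encodes a partner of desmin, at 9.19 and 3.09, Lmna at 7.49 and 2.34 and Vim at 5.17 and 3.10, and with none for Krt8, Krt18 and Nes. The median CpG ratios at the 5′ ends of these lists were 0.409, 0.311 and 0.538, beside 0.232 for the 9 genes.

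Over all promoter and gene-body peaks of the 9 genes, 6 of 30 in replicate 1 held CAGCTG in the central 150 bp, beside 16.3% of all peaks, and 3 of 16 in replicate 2, beside 10.9%. The CTCF core was in 3 of 30 and 0 of 16. The MEF2 site and the CArG box of SRF, both known from muscle promoters, were in 0 of 30 and 0 of 16, beside 0.647% and 0.521% of all peaks in replicate 1 and 0.362% and 0.489% in replicate 2. Of the 9 genes, 4 were matched in the RefSeq promoter sequences, namely Ttn, Myoz2, Ldb3 and Des. In their 250 upstream bases the MEF2 site was found for Ttn and Myoz2, beside 2.92% of promoters, and the CArG box for Ldb3, beside 1.47%. CAGCTG was found for Myoz2 and Des, beside 13%, TTGGCA for Ttn, beside 12.3%, and the AP-1 site for Ldb3, beside 6.75%. GGGCGG was found for Des, beside 32.7%, and CANNTG for Ttn, Myoz2 and Des, beside 66.2%. CATTCC, the TATA box and the CTCF core were found for none, beside 12.6%, 12.4% and 2.95%. A gene counted if any of its RefSeq promoters matched, while the shares are of single promoters, so the measures are unlike. Footprints were found in 6 of 6 promoter, 23 of 24 gene-body and 72 of 78 flank peaks of replicate 1, beside 86.5%, 93.9% and 91.9% of such peaks of all genes. In replicate 2 they were found in 35 of 40 flank peaks, beside 83.4%.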

How the data were processed

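DNase-seq of gastrocnemius was deposited as peak lists, FDR intervals and footprints for 2 libraries of 1 group. Per the labels and the text files deposited with them, peaks were called on each library's own filtered alignments on mm10, without pooling. Software for alignment, peaks and footprints is not given in the sources used here, nor are thresholds. Column 7 of the peak lists holds the deposited signal, a height taken as scaled to read depth from the values below and from a read-depth normalized track named in those text files. Of heights below 100 steps, 100% were whole numbers of steps (tolerance 0.05 of a step) of 0.00597 in replicate 1 and 0.0107 in replicate 2. An FDR, a q-value set by the authors, of 0.05 or less is listed in the interval files. The deposited footprint lists hold a score of 0.01 throughout, so footprints were not ranked.

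Genes and starts came from GENCODE M21. A peak belonged to the promoter if any base lay within 1 kb of any start of the gene, to the gene body if inside it otherwise, and to the flank if within 50 kb of either end. Shared peaks overlapped at least 50% of either peak, and shared counts are of replicate 1. The stricter list was the main one. The 9 genes, the lists and the named genes were chosen with earlier results of these data known. All 9 genes are named, of each comparison list up to 4 with a shared promoter peak by height ranks and up to 4 without any in alphabetical order, and neighbours with a start within 1 kb of a flank peak. Flnc, Pvalb and Col1a1 were named after their values were seen. Which peaks and sequences to show besides the tallest was chosen after their values were seen. With 1 group of 2 libraries no test was made.

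Sequences are from RefSeq GRCm38.p6, whose chromosomes are those of mm10. Motifs were matched on both strands: the E-box CANNTG and its form CAGCTG, the MCAT element CATTCC, the SP1 box GGGCGG, the TATA box TATAAA, the nuclear factor I element TTGGCA, the AP-1 site TGANTCA, the MEF2 site, the CArG box and the CTCF core. The analysis used pysam 0.24.0, pandas 2.3.3, numpy 2.4.6, matplotlib 3.10.9 and Python 3.11.15. Overlaps, tested on simulated intervals, differed from bedtools 2.31.1 in 0 of 538 pairs, and 0 of 350 planted motifs were missed.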

Additional observations from a re-analysis of the deposited data

How the results depend on the processing

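The 7 counts described for the 9 genes were recomputed under 16 settings, giving 68 values, of which 48 stayed within 1.5 times the count reported. With the longer lists, promoter peaks in replicate 2 were at 2 genes, gene-body peaks numbered 42 in replicate 1, and 1 was shared. With a promoter window of 2 kb, 1 gene (Tcap) had a shared promoter peak and 1 a promoter peak in replicate 2. With peaks at or above each library's median height, promoter peaks in replicate 1 were at 1 gene and gene-body peaks fell to 11 and 0 in replicates 1 and 2. With an equal number of peaks per library, promoter peaks in replicate 1 were at 1 gene and gene-body peaks numbered 4. With the start at the 5′ end alone, added after seeing the data, promoter peaks in replicate 1 were at 1 gene. The 25 shared flank peaks became 16 with reciprocal overlap, 7 with a flank of 20 kb, 39 with 100 kb, and 7 without peaks at other promoters. Leaving out replicate 1 or 2, where each count is that of the remaining library alone, gave 0 to 3 genes with a promoter peak, 16 to 24 gene-body peaks and 40 to 78 flank peaks. No paired analysis was possible because there is 1 group. Each gene-body count rests on 1 library, since 0 of the 24 and 16 peaks were shared, and the part of depth in them was not tested.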
